A study of Mus musculus with 15 samples.

Results

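Collagen genes were followed across the nuclei of the dorsal hippocampal formation (dHF) of 15 female C57BL6/J mice. All 44 genes of the count tables whose symbol is Col, a number, a and a number were taken, out of 32285 genes in all, and this rule uses names only, not expression values. The data are single-nucleus RNA sequencing libraries, 1 per mouse, made from 4 tissue micropunches of the dHF and counted as unique molecular identifiers (UMIs), each of which stands for 1 captured RNA molecule. The study compared 3 groups to ask how reproductive experience, and stress after birth, bear on gene expression in this region long after weaning. The 6 NP (nulliparous) mice were virgins and received no treatment. The 4 control RE mice (reproductive experience, labelled ControlPP) had mated, carried and nursed a litter. The 5 stress RE mice (labelled StressPP) had the same experience but were kept with limited nesting material and parted from their pups daily during the postpartum period. The mice were processed in 3 batches, of which batches 2 and 3 held 2 mice of every group and batch 1, without control RE mice, held 2 from NP and 1 from stress RE.

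Collagens are proteins of the extracellular matrix in which chains wind around each other as a triple helix. Fibril-forming collagens make the strong fibres of connective tissue, type IV collagens make the mesh of basement membranes around vessels and under the pia, FACIT collagens decorate fibrils, and transmembrane collagens are anchored in the cell surface. In the brain, fibrillar collagen is known mainly from the meninges and from large vessels, basement membrane collagen from every vessel, and several of the less common collagens from neurons and glia.

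After barcodes of poor quality and putative doublets had been removed, 123907 of 134019 barcodes remained, from libraries of 40602582 to 96211264 UMIs. Of 131661 distinct barcode sequences, 2205 occurred in more than 1 library. Nuclei were clustered without the collagen genes and named from marker lists that hold no collagen, so each name below stands for nuclei that are like that type by its markers. The leptomeningeal class held 1540 nuclei, 48 to 150 per mouse, with all 14 of its 14 markers detected, among them Dcn at 499.7 ± 126 counts in every 1000000 UMIs (CPM; mean ± SD over 15 mice here and below unless another n is given) against 27.7 ± 14.7 CPM in the vascular class. The vascular class (endothelial and mural) held 1762 nuclei, 50 to 230 per mouse, the neuronal class 64979 and the glial class 47084. Choroid plexus, ependymal, macrophage and progenitor nuclei stood outside these 4 classes. The authors left leptomeningeal, choroid plexus and ependymal nuclei out of their own analysis, whereas they were kept here. They recognised the leptomeningeal cells by Vtn and Col1a2, of which Vtn is a mural marker here. The authors also removed neuronal clusters with markers of deep cortex or of ventral granule neurons, and no such step was taken here. The micropunches also reached neighbouring cortex and thalamus, so part of the neuronal class came from outside the hippocampus. Ttr, the transthyretin gene that choroid plexus cells express strongly, was found at 258 ± 526 CPM in the leptomeningeal class, 232 ± 288 in the vascular, 14.9 ± 14.2 in the neuronal and 55.7 ± 56.5 in the glial class, where its part in the collagen values was not tested.

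Among the 4 classes collagen expression was densest in the leptomeningeal nuclei. Neurons held most collagen molecules, as they held most UMIs of all genes. Summed over the 44 genes, collagens made up 3668 ± 326 CPM of the leptomeningeal class, 949 ± 129 of the vascular, 551 ± 86.04 of the neuronal and 322 ± 36.8 of the glial class. Choroid plexus nuclei, outside these classes, were at 3799 ± 608 CPM (n = 13), which overlaps the leptomeningeal spread, and GABAergic nuclei, within the neuronal class, at 2392 ± 240.1. Of the 527661 collagen UMIs in all kept nuclei, 79.2% lay in neuronal nuclei, 8.74% in glial, 3.67% in leptomeningeal and 0.940% in vascular nuclei. Of the 962813148 UMIs of all genes, neuronal nuclei held 775517882, glial 144452621, leptomeningeal 5214421 and vascular nuclei 5273784. Single genes ranged from 382 UMIs (Col6a5) to 191825 (Col25a1). By mean CPM, 27 collagens were highest in the leptomeningeal class, 7 in the vascular, 4 in the neuronal and 6 in the glial class. Every mouse of the highest class stood above every mouse of the next class for 14 of the 27 leptomeningeal genes, 3 of the 7 vascular, 1 of the 4 neuronal and 2 of the 6 glial genes. By type, 7 of 11 fibrillar, 2 of 6 type IV, 3 of 6 type VI, 4 of 4 short-chain and anchoring, 6 of 9 FACIT, 2 of 4 transmembrane and both multiplexin collagens were highest in the leptomeningeal class. Classes are compared as a description without a test, since the nuclei of all classes came from the same mice, and CPM is a share of each class's own RNA. The same counts were not made over all genes, so they do not set collagens apart from other genes. In 38 of the 44 genes the level reached 10 CPM in at least 1 named class or subclass by the mean over mice, and these are described below.

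**Figure D1:**
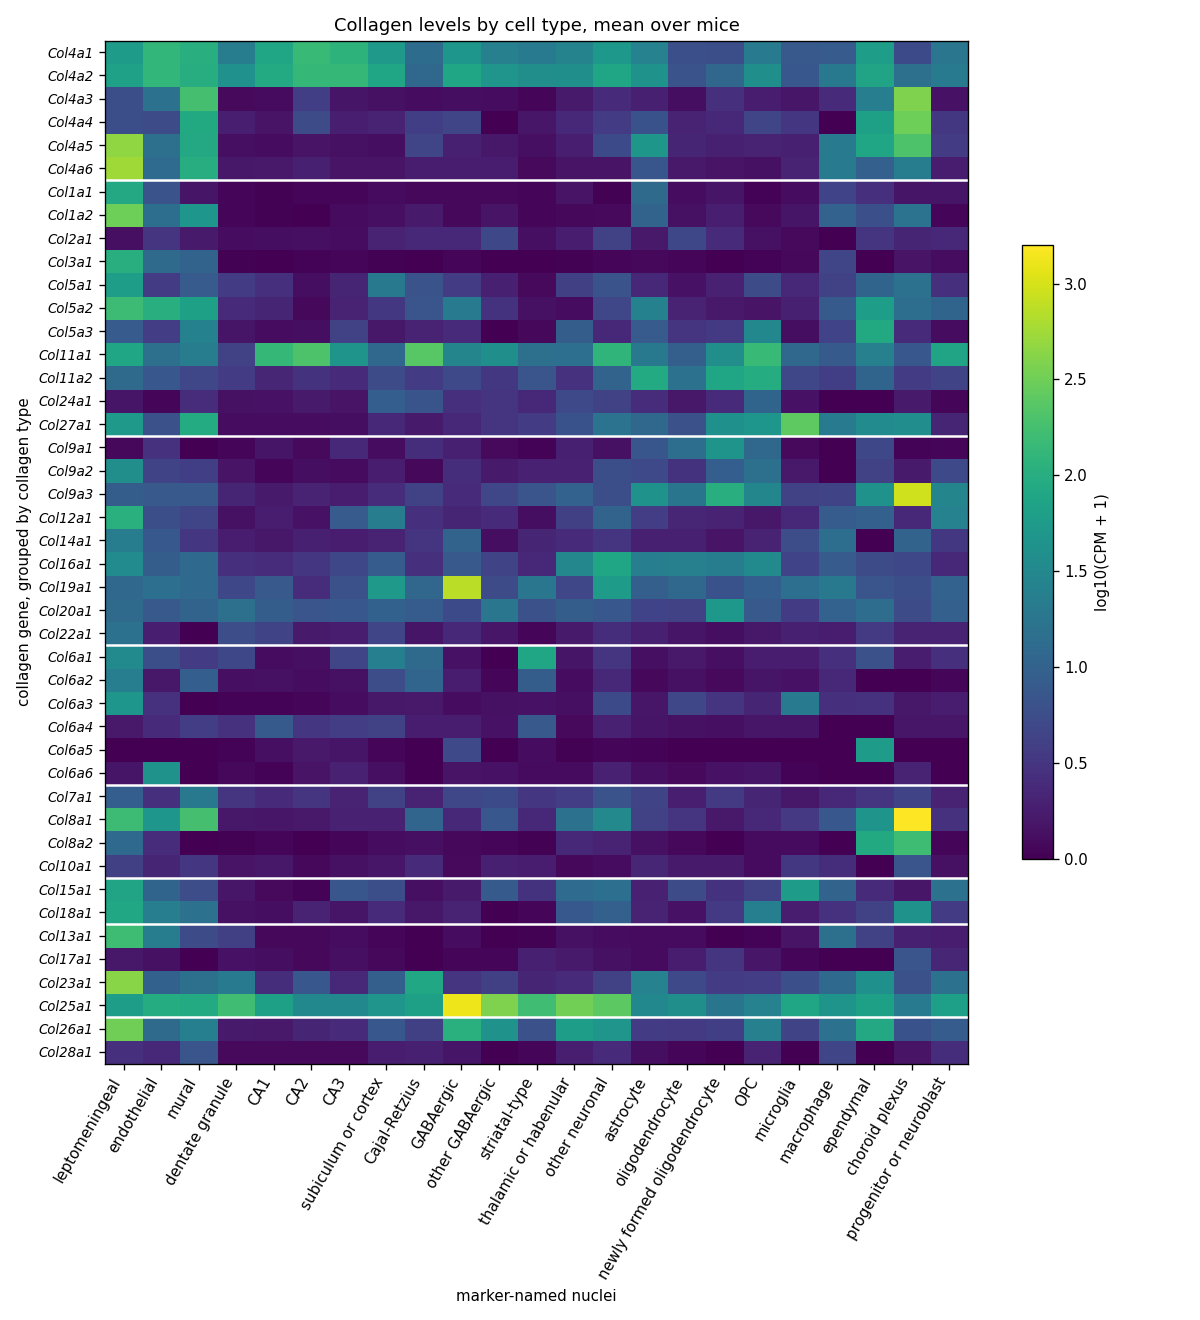
Mean level over mice of each of the 44 collagen genes (rows, by collagen type, with white lines between types) in each kind of nuclei (columns), on a colour scale of log10 of CPM + 1. The leptomeningeal column is high for Col1a2, Col4a5, Col4a6, Col23a1 and Col26a1, while Col19a1 and Col25a1 are highest in GABAergic nuclei, and Col8a1 and Col9a3 in choroid plexus nuclei.

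The 6 type IV genes lie in the genome as 3 pairs of neighbours on opposite strands, and the kinds of nuclei in which each pair was high differed between the pairs. In the GENCODE M21 annotation of the GRCm38 build (mm10), Col4a1 and Col4a2 on chromosome 8 start 21 bases apart with overlapping first bases, Col4a4 and Col4a3 on chromosome 1 start 72 bases apart, and Col4a6 and Col4a5 on chromosome X start 1309 bases apart. The windows below show how the pairs are arranged. Each runs from 250 bases before to 50 bases after the annotated start, 5′ to 3′ on the strand of the named gene, as RefSeq gives it for GRCm38.p6. The Col4a1 window also contains the start of Col4a2, and the Col4a4 window that of Col4a3. Capitals mark a GC box (GGGCGG) or a CCAAT box (CCAAT), on either strand.
Col4a1 chr8:11312777-11313076 minus strand: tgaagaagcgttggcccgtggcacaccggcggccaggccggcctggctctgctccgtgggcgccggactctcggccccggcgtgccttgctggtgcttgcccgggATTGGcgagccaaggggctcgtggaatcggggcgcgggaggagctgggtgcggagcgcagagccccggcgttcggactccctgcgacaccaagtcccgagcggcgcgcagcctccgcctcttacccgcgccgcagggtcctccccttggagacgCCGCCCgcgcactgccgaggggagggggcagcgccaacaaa
Col4a4 chr1:82586800-82587099 minus strand: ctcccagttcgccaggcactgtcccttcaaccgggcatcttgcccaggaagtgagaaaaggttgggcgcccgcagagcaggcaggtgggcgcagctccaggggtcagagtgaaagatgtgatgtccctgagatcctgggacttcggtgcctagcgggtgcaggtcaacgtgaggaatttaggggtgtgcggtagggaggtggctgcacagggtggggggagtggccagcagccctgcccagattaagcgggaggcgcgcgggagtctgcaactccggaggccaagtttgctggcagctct
Col4a6 chrX:141474027-141474326 minus strand: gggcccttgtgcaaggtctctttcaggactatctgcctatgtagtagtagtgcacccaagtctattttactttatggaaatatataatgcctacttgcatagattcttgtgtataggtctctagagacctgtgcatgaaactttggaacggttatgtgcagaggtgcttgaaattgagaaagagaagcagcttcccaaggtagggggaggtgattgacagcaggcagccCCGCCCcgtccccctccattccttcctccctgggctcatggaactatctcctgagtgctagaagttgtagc
Col4a5 chrX:141475169-141475468 plus strand: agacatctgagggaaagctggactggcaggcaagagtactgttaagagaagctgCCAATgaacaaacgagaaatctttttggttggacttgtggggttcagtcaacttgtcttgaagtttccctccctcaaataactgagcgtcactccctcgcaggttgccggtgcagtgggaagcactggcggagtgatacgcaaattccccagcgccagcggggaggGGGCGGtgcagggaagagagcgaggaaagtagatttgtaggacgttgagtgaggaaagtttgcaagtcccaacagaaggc
The GC content of these windows was 74.0% for Col4a1, 63.3% for Col4a4, 48.3% for Col4a6 and 52.7% for Col4a5, against a median of 52.7% over all 32851 mouse windows of the same length. The Col4a1 window held 1 GC box and 1 CCAAT box, the Col4a4 window neither, the Col4a6 window 1 GC box, and the Col4a5 window 1 of each. Windows were at hand for 35 of the 44 collagens, as 38 windows with some genes given more than 1 start. A GC box was present in 23 of these 38 (60.5%) against 35.7% of all windows, a CCAAT box in 13 (34.2%) against 37.4%, and a TATA box (TATAAA, either strand) in 5 (13.2%) against 13.6%. The 3 motifs were searched separately with overlaps allowed, and a match describes the sequence without showing that a factor binds there.

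Col4a1 and Col4a2 encode the chains of the general basement membrane network found around all vessels. Col4a1 was at 123 ± 18.9 CPM in vascular nuclei and 57.7 ± 16.6 in leptomeningeal nuclei, and Col4a2 at 121 ± 21.5 and 67.2 ± 15.1 CPM. Their levels were not limited to vessels. In CA2 nuclei Col4a1 was at 141 ± 44.7 and Col4a2 at 133 ± 41.4 CPM, and in CA3 nuclei they were at 115 ± 27.5 and 134 ± 32.7 CPM, which overlaps the spread of the endothelial nuclei at 130.0 ± 16.1 and 131 ± 27.8. The highest single cluster for both genes was one of 256 neuronal nuclei of no closer name, led by Gm32647, Csf2rb2 and Gm34544, with Col4a1 at 277 CPM (1660 UMIs) and Col4a2 at 274 CPM (1640 UMIs) pooled over mice. Dentate granule nuclei had 21.7 ± 2.94 and 40.6 ± 5.37 CPM and oligodendrocytes 5.02 ± 2.05 and 5.51 ± 1.78.

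Col4a3 and Col4a4, which encode chains known best from the kidney filter, were highest in choroid plexus nuclei, at 385 ± 99.8 and 307 ± 56.6 CPM (n = 13 mice). Mural nuclei (pericytes and smooth muscle) came next with 179 ± 64.5 and 87.4 ± 34.3 CPM. Endothelial nuclei held 15.00 ± 12.5 and 4.54 ± 5.09 CPM, so the vascular level of the pair lay in the mural nuclei. In ependymal nuclei Col4a4 was at 65.4 ± 30.8 and Col4a3 at 22.2 ± 37.1 CPM (n = 10). Levels of different genes are not adjusted for length, so they are compared here mainly within a gene across classes. Where different genes are ranked or set against each other by UMIs, the numbers stand for captured molecules only.

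Col4a6 and Col4a5, the pair on chromosome X, were the 2 most abundant collagens of the leptomeningeal class by UMIs. Col4a6 was at 546 ± 112 CPM there and at 34.5 ± 21.3 in the vascular class, 96.2 ± 64.2 in mural nuclei. Col4a5 was at 467 ± 81.5 CPM in leptomeningeal, 199.5 ± 31.2 in choroid plexus (n = 13) and 85.2 ± 46.3 in mural nuclei. The pair parted in astrocytes and choroid plexus. From leptomeningeal to astrocyte nuclei Col4a5 went from 467 to 48.9 ± 8.25 CPM and Col4a6 from 546 to 6.08 ± 1.64 CPM, while choroid plexus nuclei had 22.02 ± 12.2 CPM of Col4a6. A UMI of Col4a6 was found in 58.3% of leptomeningeal nuclei (median depth 2815 UMIs) and in 0.172% of oligodendrocytes (median depth 2523), a type not known for it. After every nucleus was thinned to 1000 UMIs these shares were 36.9% and 0.0868%.

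Of the 11 fibrillar collagens, 4 (Col1a1, Col1a2, Col3a1 and Col5a1) were highest in the leptomeningeal class with every mouse above every mouse of the next class, 3 were highest there with overlap, and 4 were highest in another class. Col1a2 and Col1a1, the chains of type I collagen, stood at 311 ± 52.5 and 85.1 ± 25.8 CPM in leptomeningeal nuclei against 21.9 ± 15.7 and 4.17 ± 5.56 in the vascular class, and Col3a1 (type III) at 101 ± 30.1 against 11.03 ± 8.55. No mouse of any other class reached the lowest leptomeningeal mouse for these 3 genes. Within vessels Col1a2 was at 47.1 ± 30.6 CPM in mural and 13.2 ± 16.2 in endothelial nuclei. The type V chains Col5a1 and Col5a2, which help to set fibril width, were at 60.4 ± 18.04 and 156 ± 23.5 CPM in leptomeningeal nuclei, and Col5a2 was also at 101 ± 53.01 in endothelial nuclei with overlapping mice. Col5a3, also of type V, was highest in ependymal nuclei at 86.95 ± 34.3 CPM (n = 10), followed by oligodendrocyte precursors (OPC) at 29.8 ± 8.51.

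The remaining fibrillar genes were spread over neurons and glia. Col11a1 was at 235 ± 42.3 CPM in Cajal-Retzius nuclei, 202 ± 48.5 in CA2, 142 ± 22.4 in OPC and 135 ± 30.6 in CA1 nuclei, beside 77.7 ± 21.5 in leptomeningeal nuclei, and the spreads of Cajal-Retzius and CA2 nuclei overlapped. Col11a2 was a glial gene by level, at 95.95 ± 24.2 CPM in OPC, 88.9 ± 21.2 in astrocytes and 74.2 ± 23.1 in newly formed oligodendrocytes, but 14.7 ± 4.00 in mature oligodendrocytes. Col27a1, a fibrillar collagen of cartilage, reached 252 ± 27.8 CPM in microglia, 93.1 ± 38.2 in mural and 52.3 ± 17.2 in leptomeningeal nuclei. Its highest single cluster was one of 156 neuronal nuclei of no closer name, at 279 CPM (833 UMIs) pooled over mice. Col27a1 was itself the leading gene of that cluster, and 34.6% of its nuclei came from 1 mouse. A Col27a1 UMI was present in 38.2% of microglia, 3.46% of macrophages and 1.33% of oligodendrocytes, and in 21.5%, 1.49% and 0.469% after thinning to 1000 UMIs.

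Type I collagen UMIs were also found in astrocytes, with a gene makeup unlike that of the leptomeningeal nuclei. Astrocytes held 390 Col1a1 UMIs, 15 to 43 in each of the 15 mice, and 316 Col1a2 UMIs, but 5 Col3a1 UMIs, spread over 3 mice. Per 100 Col1a2 UMIs there were 123 Col1a1 and 1.58 Col3a1 UMIs in astrocytes, against 26.3 and 31.3 in leptomeningeal nuclei. As a level, Col1a1 was at 11.7 ± 3.56 CPM in astrocytes and 85.1 ± 25.8 in leptomeningeal nuclei. The leptomeningeal marker Dcn gave 55 UMIs in all astrocytes. A Col1a1 UMI was seen in 3.98% of astrocytes, 22.01% of leptomeningeal nuclei and 0.0755% of oligodendrocytes, at median depths of 3394, 2815 and 2523 UMIs. Thinning to 1000 UMIs per nucleus gave 1.25%, 8.71% and 0.0243%. Col3a1 had a UMI in 0.0534% of astrocytes and 0.0275% of oligodendrocytes.

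The 2 astrocyte clusters differed by mean in Col1a1, Col1a2 and Col11a2, which was read without a test. In the cluster of 5865 nuclei Col1a1 was at 9.41 ± 3.14 CPM, Col1a2 at 2.76 ± 1.84 and Col11a2 at 124 ± 30.1. In the cluster of 3499 nuclei Col1a1 was at 15.3 ± 6.54, Col1a2 at 19.8 ± 7.86 and Col11a2 at 34.9 ± 10.99 CPM. Col11a2 did not overlap between the clusters in any pair of mice, with 85.5 to 203 CPM in the first and 20.2 to 59.9 in the second. Mice overlapped for Col1a1, at 6.11 to 17.6 CPM in the first and 8.40 to 28.6 in the second. They also overlapped for Col1a2, at 0.670 to 7.34 and 3.57 to 35.7 CPM.

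**Figure D2:**
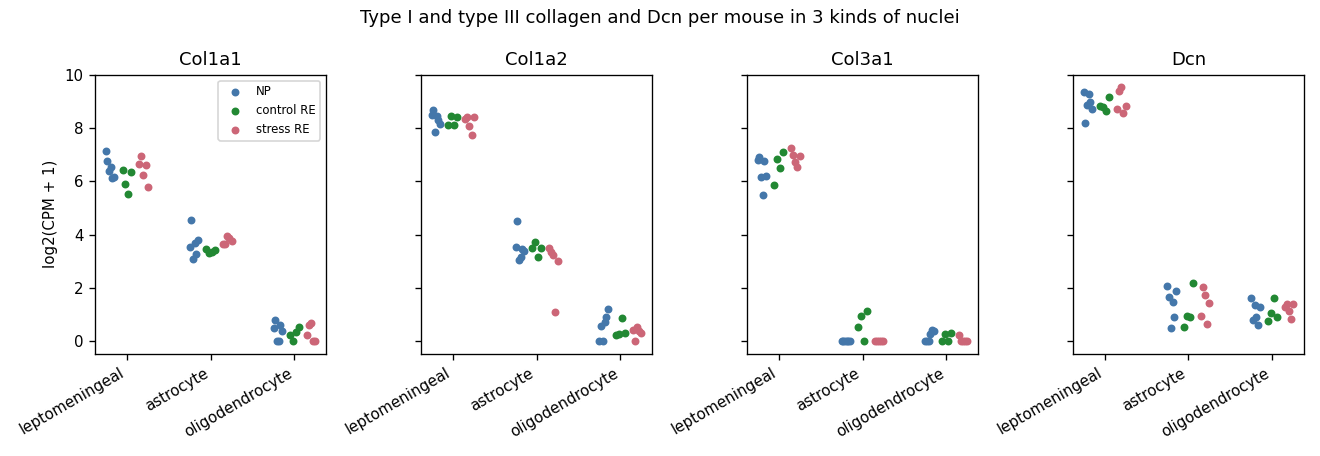
Levels of Col1a1, Col1a2, Col3a1 and Dcn in leptomeningeal, astrocyte and oligodendrocyte nuclei, 1 point per mouse coloured by group, as log2 of CPM + 1. Col1a1 and Col1a2 in astrocytes lie between the other kinds of nuclei, whereas Col3a1 is at 0 in astrocytes of all but 3 mice.

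The FACIT collagens, which bind to fibril surfaces, divided between meninges, oligodendrocyte lineage and interneurons. In leptomeningeal nuclei Col12a1 was at 108 ± 37.5, Col9a2 at 37.5 ± 11.7, Col14a1 at 21.4 ± 18.9 and Col22a1 at 15.2 ± 10.7 CPM, each above every other class by mean. The type IX genes Col9a1 and Col9a3 and the little-studied Col20a1 peaked among the 4 classes' subclasses in newly formed oligodendrocytes, at 44.03 ± 15.9, 105 ± 36.96 and 49.3 ± 19.9 CPM, against 13.3 ± 2.26, 16.4 ± 2.89 and 3.14 ± 0.939 in mature oligodendrocytes. Col20a1 overlaps another measured gene on its own strand, so its counts are uncertain. Col9a3 was far higher outside the classes, at 929.7 ± 220.2 CPM in choroid plexus nuclei (n = 13). Col16a1 was at 74.9 ± 32.4 CPM in neuronal nuclei of no closer name and at 34.1 ± 13.9 in leptomeningeal nuclei. In a single cluster of 1252 thalamic or habenular nuclei it reached 109 CPM (1412 UMIs) pooled over mice.

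Col19a1, a FACIT collagen with a known role in synapse formation, was a gene of GABAergic neurons, at 741 ± 107 CPM there and 55.97 ± 12.7 in the next subclass. Its UMIs were present in 76.3% of GABAergic nuclei, 7.64% of CA1 nuclei and 2.80% of oligodendrocytes, and in 35.7%, 0.721% and 1.09% after thinning, so the thinned CA1 share lay below that of a type that should lack the gene. Its level was 13.1 ± 9.03 CPM in the vascular, 10.6 ± 12.05 in the leptomeningeal and 10.1 ± 3.82 in the glial class, where the part of free RNA was not tested.

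Col25a1, a transmembrane collagen of neurons known from amyloid plaques and from motor nerve growth, held more UMIs than any other collagen. It was at 1310.4 ± 165 CPM in GABAergic nuclei, 377 ± 139 in a separate GABAergic cluster (n = 14), 327 ± 88.4 in thalamic or habenular nuclei and 163 ± 18.8 in dentate granule nuclei. It also gave 92.2 ± 47.3 CPM in vascular nuclei. A Col25a1 UMI was seen in 73.04% of GABAergic nuclei, 12.3% of endothelial nuclei and 9.40% of oligodendrocytes, and after thinning in 45.98%, 4.54% and 3.44%. Leptomeningeal nuclei had 61.2 ± 28.9 CPM and glial nuclei 37.2 ± 11.6. Among the non-neuronal types the thinned share ran from 1.74% in choroid plexus nuclei to 7.34% in microglia, and the part of free RNA in these values was not tested.

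Of the other transmembrane collagens, Col23a1 and Col13a1 were highest in leptomeningeal nuclei. Col23a1 was at 428 ± 84.00 CPM in leptomeningeal nuclei and 10.4 ± 7.73 in vascular nuclei, with Cajal-Retzius nuclei next among the named kinds at 80.7 ± 43.4. Col13a1, a transmembrane collagen of cell contacts, was at 159.8 ± 31.4 against 15.5 ± 15.5 CPM in vessels. Col26a1, which belongs to no larger type and whose counts are uncertain because it overlaps another measured gene on its strand, was at 323 ± 66.9 CPM in leptomeningeal, 108 ± 21.2 in GABAergic and 84.5 ± 24.7 in ependymal nuclei (n = 10). The multiplexins Col15a1 and Col18a1, basement membrane proteins whose ends can be released as vessel growth inhibitors, were at 72.03 ± 19.5 and 79.5 ± 21.2 CPM in leptomeningeal nuclei. Col15a1 reached 56.8 ± 11.4 CPM in microglia, with overlapping mice, and Col18a1 43.5 ± 16.7 in choroid plexus nuclei (n = 13).

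Type VI collagens form beaded filaments near cell surfaces. Their common chains Col6a1, Col6a2 and Col6a3 were at 32.7 ± 14.5, 22.1 ± 9.08 and 46.98 ± 15.9 CPM in leptomeningeal nuclei. Col6a1 was higher still in striatal-type neurons, at 76.4 ± 18.1 CPM over the 8 mice with at least 10 such nuclei, where Col6a2 was at 7.67 ± 3.48, and Col6a3 was also at 18.96 ± 7.06 in microglia. Col6a6 was endothelial, at 43.3 ± 29.1 CPM, with no UMI in mural nuclei, whose total of 1369772 UMIs allows a level of up to 2.19 CPM. Col6a5 was at 57.2 ± 55.6 CPM in ependymal nuclei (n = 10), a spread as wide as its mean, and at 4.03 ± 2.21 in GABAergic nuclei.

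The short-chain collagens Col8a1 and Col8a2, network formers of basement membranes and of the eye, were highest in choroid plexus nuclei, at 1567 ± 477 and 158 ± 35.5 CPM (n = 13), and Col8a2 was also at 85.6 ± 48.6 in ependymal nuclei (n = 10). Col8a1 was at 180.0 ± 46.9 CPM in mural and 157 ± 96.1 in leptomeningeal nuclei, where Ttr varied from 8.95 to 2102 CPM between mice. Col7a1, the anchoring fibril collagen, was highest in mural nuclei at 18.5 ± 17.2 CPM. The 6 collagens whose mean did not reach 10 CPM in any named class or subclass (Col2a1, Col6a4, Col10a1, Col17a1, Col24a1 and Col28a1) had their highest subclass means between 3.97 and 9.75 CPM. In single clusters, pooled over mice, Col6a4 reached 11.9 CPM (54 UMIs, in an unnamed cluster) and Col24a1 11.9 CPM (257 UMIs).

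Collagen genes also varied within the leptomeningeal nuclei. These were clustered again without collagens, which gave 7 sub-clusters of at least 50 nuclei. Values here are pooled over mice with 95% Poisson intervals, which cover counting error only. Col4a6 was at 1482 CPM (1355 to 1617) in the sub-cluster of 113 nuclei led by Gm30624, Arhgap22 and Spp1, and at 1273 CPM (1173 to 1379) in that of 162 nuclei led by Mras, Eln and Htra3. It was at 24.96 CPM (13.6 to 41.9) in the sub-cluster of 153 nuclei led by Alpl, Igfbp7 and Hgf, and at 12.1 CPM (3.31 to 31.1) in that of 89 nuclei led by Adamtsl3, Cdh1 and Slc47a1. Col4a5 was likewise high in the first pair of sub-clusters and low in the second, with 1266, 1082, 73.1 and 91.03 CPM. The Alpl and Cdh1 sub-clusters were thus low in both genes of the chromosome X pair.

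Other collagens marked the sub-clusters in different ways. The Alpl sub-cluster had Col26a1 at 817 CPM (744 to 895) and Col18a1 at 267 CPM (226 to 314), each its highest value among the 7. The Cdh1 sub-cluster had Col12a1 at 422 CPM (355 to 498) and Col14a1 at 139.6 CPM (102 to 186), and these nuclei came from 8 of the 15 mice. In the Eln sub-cluster Col8a1 was at 659 CPM (588 to 736), Col3a1 at 236 CPM (194 to 284) and Col5a2 at 323 CPM (274 to 379). In the Spp1 sub-cluster Col15a1 was at 319 CPM (261 to 385) and Col13a1 at 342 CPM (283 to 411). Col1a2 ranged from 232 to 407 CPM over the 7. The leading genes of the other 3 sub-clusters included Mbp, a myelin gene, and Flt1, a vessel gene, whose part in their collagen values was not tested.

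The 4 collagens with the most UMIs in each class were then read mouse by mouse. In leptomeningeal nuclei Col4a6 ran from 378 to 615 CPM with a median of 510.1 over the 6 NP mice, stood at 418, 655, 679 and 690.4 CPM in control RE and at 372, 483, 552, 626 and 694 CPM in stress RE. A single control RE mouse was low, and the others of that group lay above the NP range. Col4a5 ran from 324 to 536 CPM with a median of 412 over the 6 NP mice, stood at 425, 462, 519 and 613 CPM in control RE and at 389.6, 459.8, 461, 526 and 579.5 CPM in stress RE. The groups overlapped. Col23a1 ran from 320.1 to 497 CPM with a median of 428 over the 6 NP mice, stood at 404, 434, 529.9 and 546 CPM in control RE and at 258, 331, 400.4, 496 and 509.7 CPM in stress RE. Col26a1 ran from 279.8 to 424 CPM with a median of 316 over the 6 NP mice, stood at 199.7, 255, 263 and 347 CPM in control RE and at 295, 299, 316, 413 and 422 CPM in stress RE. Both genes overlapped between all groups, and neither had a group apart from the rest.

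In vascular nuclei Col4a1 ran from 108 to 142 CPM with a median of 124 over the 6 NP mice, stood at 97.3, 106, 131 and 144 CPM in control RE and at 89.2, 104, 124, 147 and 150.0 CPM in stress RE. Col4a2 ran from 81.01 to 138 CPM with a median of 109 over the 6 NP mice, stood at 134, 138, 149.6 and 154 CPM in control RE and at 105, 107, 112, 124 and 140.2 CPM in stress RE. These genes of the general basement membrane network overlapped between the groups. Col5a2 ran from 45.1 to 150.5 CPM with a median of 105 over the 6 NP mice, stood at 63.3, 67.8, 118 and 187 CPM in control RE and at 12.7, 53.7, 71.95, 82.2 and 123 CPM in stress RE. The spread within each group was wide. Col25a1 ran from 42.4 to 156 CPM with a median of 83.6 over the 6 NP mice, stood at 56.3, 67.3, 74.01 and 195 CPM in control RE and at 29.4, 50.8, 102, 104 and 143 CPM in stress RE. Of the 15 mice a single control RE mouse stood far above its group in this gene.

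In neuronal nuclei Col25a1 ran from 193 to 298 CPM with a median of 251 over the 6 NP mice, stood at 204, 211, 222 and 255 CPM in control RE and at 196, 199, 206, 221 and 241 CPM in stress RE. Col19a1 ran from 33.5 to 56.6 CPM with a median of 43.8 over the 6 NP mice, stood at 42.5, 54.1, 57.6 and 57.7 CPM in control RE and at 38.3, 50.3, 54.8, 74.4 and 77.9 CPM in stress RE. The 3 groups overlapped in both genes. Col4a2 ran from 50.1 to 99.8 CPM with a median of 59.6 over the 6 NP mice, stood at 57.1, 61.2, 63.6 and 67.2 CPM in control RE and at 48.8, 53.7, 59.95, 61.8 and 75.5 CPM in stress RE. Col4a1 ran from 36.02 to 69.3 CPM with a median of 43.3 over the 6 NP mice, stood at 39.7, 43.7, 43.97 and 46.03 CPM in control RE and at 30.1, 42.8, 44.03, 47.1 and 52.8 CPM in stress RE. The neuronal type IV values also overlapped. In glial nuclei Col11a2 ran from 32.3 to 63.05 CPM with a median of 43.2 over the 6 NP mice, stood at 36.04, 39.99, 43.5 and 48.6 CPM in control RE and at 28.01, 31.2, 36.2, 38.8 and 50.8 CPM in stress RE. Col27a1 ran from 28.1 to 40.3 CPM with a median of 32.2 over the 6 NP mice, stood at 26.5, 27.8, 28.98 and 33.1 CPM in control RE and at 20.05, 27.5, 27.98, 32.02 and 34.8 CPM in stress RE. The groups overlapped in these glial genes. Col11a1 ran from 23.6 to 28.2 CPM with a median of 24.8 over the 6 NP mice, stood at 23.8, 24.2, 28.6 and 29.1 CPM in control RE and at 16.6, 23.1, 26.4, 29.1 and 31.2 CPM in stress RE. Col25a1 ran from 25.5 to 58.9 CPM with a median of 44.04 over the 6 NP mice, stood at 23.7, 36.6, 41.7 and 47.8 CPM in control RE and at 19.95, 25.5, 28.7, 32.6 and 34.97 CPM in stress RE. Neither gene had a group that stood apart.

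**Figure D3:**
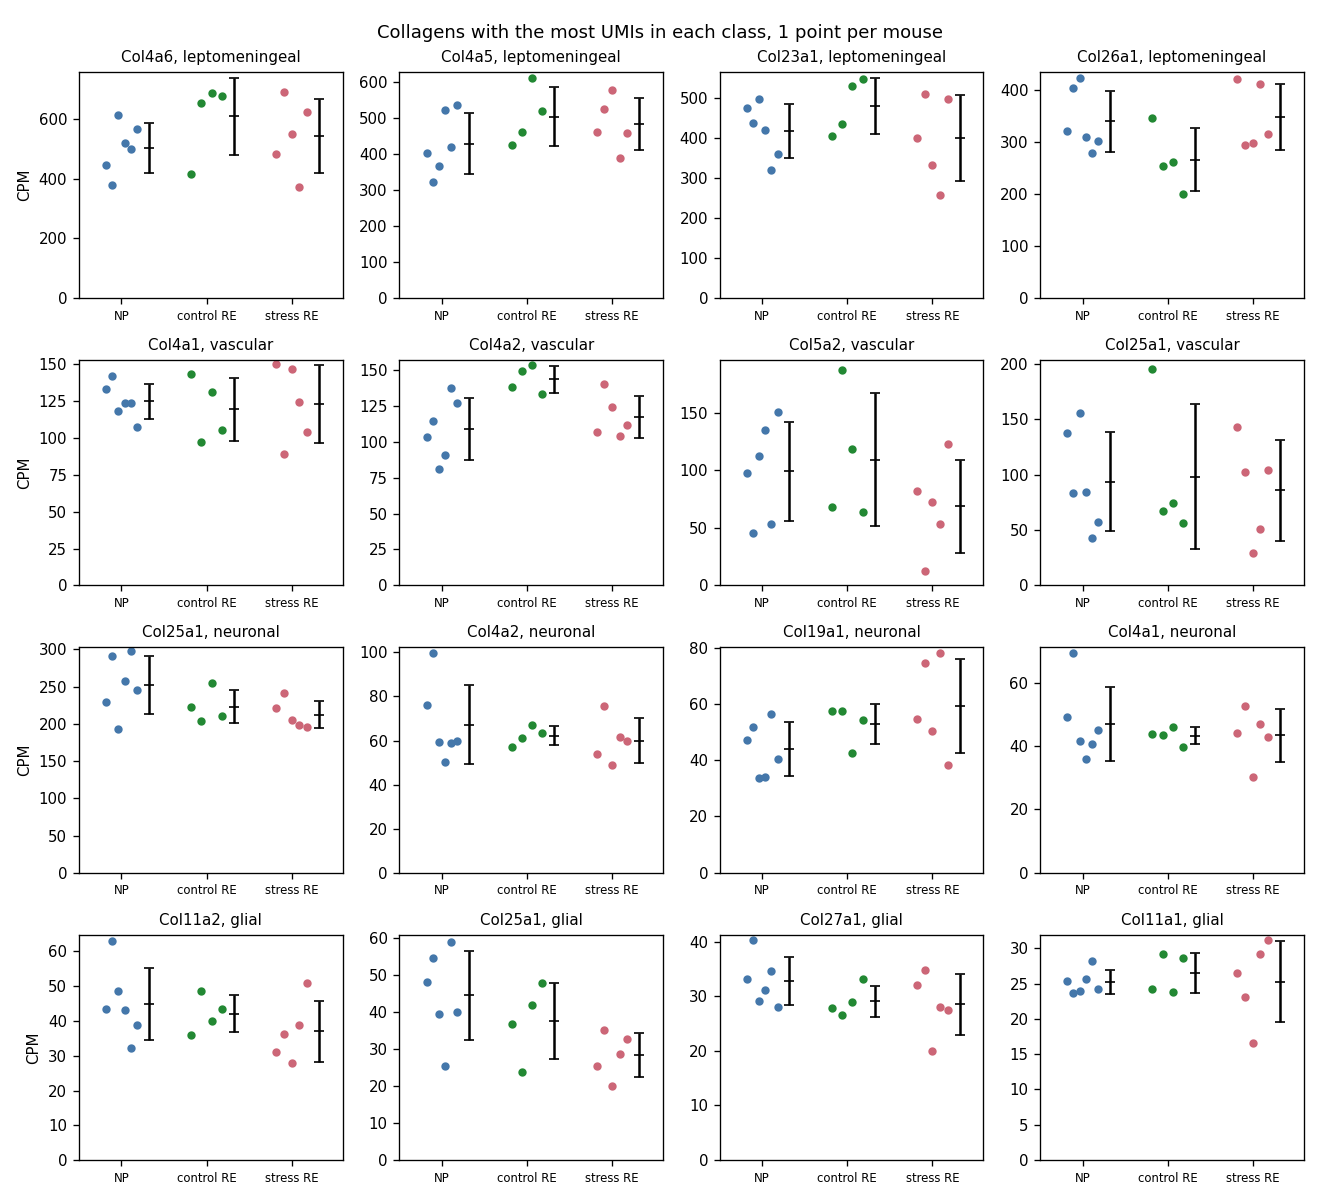
CPM of the 4 collagens with the most UMIs in each class, 1 point per mouse, with black bars for the group mean ± SD. The groups NP (6 mice), control RE (4) and stress RE (5) overlap in every panel.

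Group differences were tested in each class on UMIs summed per mouse, with edgeR's two-sided quasi-likelihood test in 1 fit of all 15 mice and Benjamini-Hochberg adjustment over all genes tested. No collagen passed an adjusted p of 0.05 in any class or contrast, and neither did any other gene (0% called in each of the 12 comparisons). At an unadjusted p under 0.05, the collagens are therefore set beside the same count over all genes.

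In the leptomeningeal class 24 of 44 collagens had enough counts to be tested. An unadjusted p under 0.05 was reached by 2 (8.33%) in control RE against NP, 1 (4.17%) in stress RE against control RE and 1 (4.17%) in stress RE against NP, where 4.72%, 4.2% and 3.72% of all genes tested did (317, 282 and 250 genes). The median log2 difference of the tested collagens was 0.09, -0.08 and -0.04 in these 3 contrasts, against -0.01, 0.01 and 0.00 over all genes. Summed collagen was at 3647 ± 93.4 CPM among NP mice (n = 6), 3734 ± 395 among control RE mice (n = 4) and 3639 ± 487 among stress RE mice (n = 5). In the same order of groups it was at 920 ± 81.6, 1053 ± 135 and 900 ± 145 CPM in the vascular class. In the neuronal class it was at 592 ± 119, 526 ± 31.4 and 522 ± 57.2 CPM, and in the glial class at 345 ± 39.9, 321 ± 14.7 and 295 ± 29.2. Mice of the groups overlapped in every class, and these sums were not tested.

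Col14a1, a FACIT collagen of connective tissue, had the smallest p in both contrasts with NP. Col14a1 ran from 6.25 to 69.4 CPM with a median of 35.98 over the 6 NP mice, stood at 6.89, 8.88, 11.6 and 21.2 CPM in control RE and at 5.64, 5.73, 11.8, 13.8 and 17.4 CPM in stress RE. The NP mice reached higher, but at least 1 NP mouse lay within the range of the other groups. The log2 difference was -1.64 (SE 0.57) for control RE against NP, with an edgeR adjusted p of 1.00, and -1.71 (SE 0.53) for stress RE against NP, with adjusted p = 1.00. As a difference of mean log2(CPM + 1), control RE against NP was -2.09 in batch 2 and 0.01 in batch 3, against -1.30 over all mice, and stress RE against NP was -2.49 in batch 2 and -0.01 in batch 3, against -1.46 over all mice. Of these 2 batches the difference was thus seen in batch 2 and not in batch 3. In batch 1, without control RE mice, the 2 NP mice had 34.9 and 51.2 CPM and the 1 stress RE mouse 11.8 CPM. These levels rest on 1 to 31 UMIs per mouse. The Cdh1 sub-cluster, where Col14a1 was high, made up 10.2 ± 8.61% of leptomeningeal nuclei in NP, 0% in all 4 control RE mice and 4.09 ± 5.22% in stress RE. Without its nuclei Col14a1 was at 23.1 ± 13.6 CPM among NP mice, 12.2 ± 6.36 among control RE mice and 8.42 ± 5.30 among stress RE mice. Between stress RE and control RE the smallest p belonged to Col26a1, with a log2 difference of 0.39 (SE 0.18) and an adjusted p of 1.00, or 0.68 in batch 2 and 0.23 in batch 3, against 0.40 over all mice on the log2(CPM + 1) scale.

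In the vascular class 10 of 44 collagens could be tested, and an unadjusted p under 0.05 was reached by 1 (10.00%) in control RE against NP, 1 (10.00%) in stress RE against control RE and 1 (10.00%) in stress RE against NP, where 1.81%, 4.19% and 3.76% of all genes tested did (118, 273 and 245 genes). The median log2 difference of the tested collagens was 0.17, -0.42 and -0.10 in these 3 contrasts, against -0.01, 0.01 and 0.00 over all genes. Col4a2 had the smallest p for control RE against NP, with a log2 difference of 0.38 (SE 0.17) and an edgeR adjusted p of 1.00. The endothelial Col6a6 had it in the other contrasts. Col6a6 ran from 0 to 84.00 CPM with a median of 40.2 over the 6 NP mice, stood at 14.1, 29.9, 40.7 and 68.3 CPM in control RE and at 6.54, 12.7, 18.6, 22.6 and 28.6 CPM in stress RE. The values were scattered within every group and overlapped between them. Its log2 difference was -1.24 (SE 0.56) for stress RE against control RE and -1.25 (SE 0.52) for stress RE against NP, with adjusted p-values of 1.00 and 1.00 by edgeR. On the log2(CPM + 1) scale stress RE against NP was 1.77 in batch 2 and -2.01 in batch 3, against -0.45 over all mice, so the batches went opposite ways. Stress RE against control RE was -0.01 in batch 2 and -1.85 in batch 3, against -1.003 over all mice, so that difference was seen in batch 3 and not in batch 2. For Col4a2 control RE against NP was 0.42 in batch 2 and 0.44 in batch 3, against 0.42 over all mice.

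In the neuronal class 43 of 44 collagens were tested, and an unadjusted p under 0.05 was reached by 7 (16.3%) in control RE against NP, 1 (2.33%) in stress RE against control RE and 8 (18.6%) in stress RE against NP, where 3.59%, 0.813% and 2.97% of all genes tested did (711, 161 and 588 genes). The median log2 difference of the tested collagens was -0.14, 0.01 and -0.23 in these 3 contrasts, against -0.01, -0.01 and -0.01 over all genes. All 7 such collagens were lower in control RE than in NP, and 7 of 8 lower in stress RE than in NP. Both contrasts use the same NP mice. Col1a1 and Col1a2, high in leptomeningeal nuclei, were among these in both contrasts, and in neuronal nuclei Col1a2 was at 0.275 ± 0.148 CPM among NP mice, 0.0914 ± 0.0150 among control RE mice and 0.127 ± 0.0498 among stress RE mice. All 14 leptomeningeal markers had UMIs in neuronal nuclei of every group. Their summed level was 121 ± 14.9 CPM (98.7 to 142) over NP mice, 123 ± 18.5 (105 to 143) over control RE mice and 109.7 ± 17.8 (88.4 to 129) over stress RE mice. Dcn, 1 of these 14 markers and also a CA1 marker here, was at 0.884 ± 0.481 CPM in neuronal nuclei of NP mice, 0.363 ± 0.0923 of control RE mice and 0.617 ± 0.489 of stress RE mice. In leptomeningeal nuclei of NP mice the same sum was 8650 ± 450 CPM, with Dcn at 491 ± 133. Dcn was thus a smaller part of the sum in neuronal than in leptomeningeal nuclei, and what the sum measures in neurons was not tested. The part of leptomeningeal RNA in the neuronal differences was not tested. Thalamic or habenular nuclei, from outside the hippocampus, made up 17.5 ± 6.50% of neuronal nuclei among NP mice, 9.69 ± 2.19% among control RE mice and 10.1 ± 5.20% among stress RE mice. In the same order, striatal-type nuclei made up 2.35 ± 4.29, 0.775 ± 0.806 and 4.98 ± 6.72%. Nuclei of no closer name (other neuronal) made up 13.8 ± 7.72, 8.88 ± 4.57 and 10.4 ± 5.12%. These last include a cluster of 256 nuclei with 8 of 9 CA3 markers, so they cannot all be placed outside the hippocampus. With thalamic or habenular, striatal-type and other neuronal nuclei left out, a choice made after their shares had been seen, 1, 0 and 2 of 39 tested collagens had an unadjusted p under 0.05 in the same 3 contrasts (2.56%, 0% and 5.13%), where 1.76%, 0.717% and 2.08% of all genes tested did.

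Col5a3, a type V fibrillar chain, had the smallest p of the neuronal collagens in both contrasts with NP. Col5a3 ran from 1.08 to 8.63 CPM with a median of 3.68 over the 6 NP mice, stood at 0.810, 0.852, 0.978 and 1.20 CPM in control RE and at 0.509, 0.702, 0.976, 1.51 and 1.87 CPM in stress RE. Of the 6 NP mice 5 lay above every mouse of the other groups, and a single NP mouse was far above the rest. The log2 difference was -1.93 (SE 0.47) for control RE against NP, with an edgeR adjusted p of 0.68, and -1.73 (SE 0.43) for stress RE against NP, with adjusted p = 1.00. On the log2(CPM + 1) scale control RE against NP was -0.58 in batch 2 and -1.35 in batch 3, against -1.19 over all mice, and stress RE against NP was -0.86 in batch 2 and -1.18 in batch 3, against -1.11 over all mice. In thalamic or habenular nuclei Col5a3 was at 14.00 ± 7.51 CPM among NP mice, 1.92 ± 2.42 among control RE mice and 5.11 ± 5.44 among stress RE mice. Within these nuclei Col16a1 was at 42.1 ± 15.9 CPM for NP, 20.6 ± 9.66 for control RE and 20.9 ± 5.50 for stress RE, and Col18a1 at 9.35 ± 4.30, 4.12 ± 0.896 and 5.39 ± 2.87 CPM. Col15a1, at 11.6 ± 3.62, 14.2 ± 1.45 and 11.1 ± 1.26 CPM, did not show this order. The order was not limited to thalamic or habenular nuclei. Col16a1 was at 89.4 ± 38.3, 72.3 ± 24.7 and 59.7 ± 27.8 CPM in neuronal nuclei of no closer name. Its mean was also highest for NP in CA3, dentate granule and CA1 nuclei, though not in striatal-type nuclei. In CA3 nuclei Col5a3 was at 3.96 ± 2.86, 2.67 ± 0.383 and 2.75 ± 0.968 CPM, while in CA1 nuclei its mean was highest for control RE. These levels within subclasses were read without a test of each gene. The subclass joins a larger and a smaller cluster of thalamic or habenular nuclei. Pooled over mice, Col5a3 and Col16a1 both had their highest level among neuronal clusters in the smaller one. Its nuclei came unevenly from the mice. The group values of Col5a3 and Col16a1 within the subclass can therefore also follow each mouse's share of that cluster, which was not tested. Without the thalamic, striatal-type and other neuronal nuclei the log2 differences were -0.36 (SE 0.35) and -0.58 (SE 0.33). Between stress RE and control RE, Col28a1, a collagen of no larger type, had the smallest p. Col28a1 ran from 0.325 to 0.706 CPM with a median of 0.587 over the 6 NP mice, stood at 0.231, 0.327, 0.346 and 0.398 CPM in control RE and at 0.318, 0.339, 0.470, 0.747 and 0.764 CPM in stress RE. The groups overlapped. Its log2 difference was 0.66 (SE 0.30), with an edgeR adjusted p of 1.00, or 0.05 in batch 2 and 0.24 in batch 3, against 0.19 over all mice on the log2(CPM + 1) scale.

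In the glial class 33 of 44 collagens were tested, and an unadjusted p under 0.05 was reached by 2 (6.06%) in control RE against NP, 1 (3.03%) in stress RE against control RE and 5 (15.2%) in stress RE against NP, where 1.62%, 2.25% and 3.63% of all genes tested did (268, 372 and 600 genes). The median log2 difference of the tested collagens was -0.07, -0.09 and -0.14 in these 3 contrasts, against 0.00, -0.01 and 0.00 over all genes. Col4a6 had the smallest p for control RE against NP. Col4a6 ran from 1.75 to 3.13 CPM with a median of 2.25 over the 6 NP mice, stood at 1.22, 1.35, 1.74 and 2.10 CPM in control RE and at 1.51, 1.63, 1.70, 1.85 and 1.97 CPM in stress RE. The groups overlapped at these low levels. The log2 difference was -0.50 (SE 0.22), with an edgeR adjusted p of 1.00, or -0.09 in batch 2 and -0.42 in batch 3, against -0.33 over all mice on the log2(CPM + 1) scale. Col8a1 had it in the other 2 contrasts. Col8a1 ran from 1.05 to 5.45 CPM with a median of 3.01 over the 6 NP mice, stood at 0.929, 2.22, 2.59 and 2.72 CPM in control RE and at 0.407, 0.616, 0.749, 0.942 and 2.04 CPM in stress RE. The stress RE mice lay at the low end, with overlap. Its log2 difference was -1.15 (SE 0.49) for stress RE against control RE and -1.73 (SE 0.44) for stress RE against NP, with adjusted p-values of 1.00 and 1.00 by edgeR. On the log2(CPM + 1) scale stress RE against control RE was -0.14 in batch 2 and -1.12 in batch 3, against -0.68 over all mice, and stress RE against NP was -0.60 in batch 2 and -0.91 in batch 3, against -1.09 over all mice. Col8a1 was far higher in choroid plexus than in glial nuclei, and the choroid plexus marker Ttr was measured beside it in glial nuclei, at 49.1 ± 25.6 CPM among NP mice, 36.2 ± 30.8 among control RE mice and 79.4 ± 92.2 among stress RE mice. All 8 choroid plexus markers had UMIs in every group, with a summed level of 909 to 1054 CPM among NP mice, 752 to 953 among control RE mice and 766 to 1317 among stress RE mice. Among NP mice the mean sum was 967 CPM in glial nuclei and 561 CPM in leptomeningeal nuclei, where Ttr was higher, at 101 ± 84.2 CPM. The sum and Ttr thus ranked these classes differently. The part of choroid plexus RNA in glial Col8a1 was not tested.

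The same test was counted within endothelial, mural, astrocyte, oligodendrocyte, OPC, microglia, dentate granule, CA1, CA3 and GABAergic nuclei. Other subclasses, thalamic or habenular nuclei among them, were not part of this count. Over 110106 tests of a gene in a subclass, 0 collagens were called in any contrast. Genes called in all were 0, 1 and 0 for control RE against NP, stress RE against control RE and stress RE against NP (0%, 0.000908% and 0%).

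**Figure D4:**
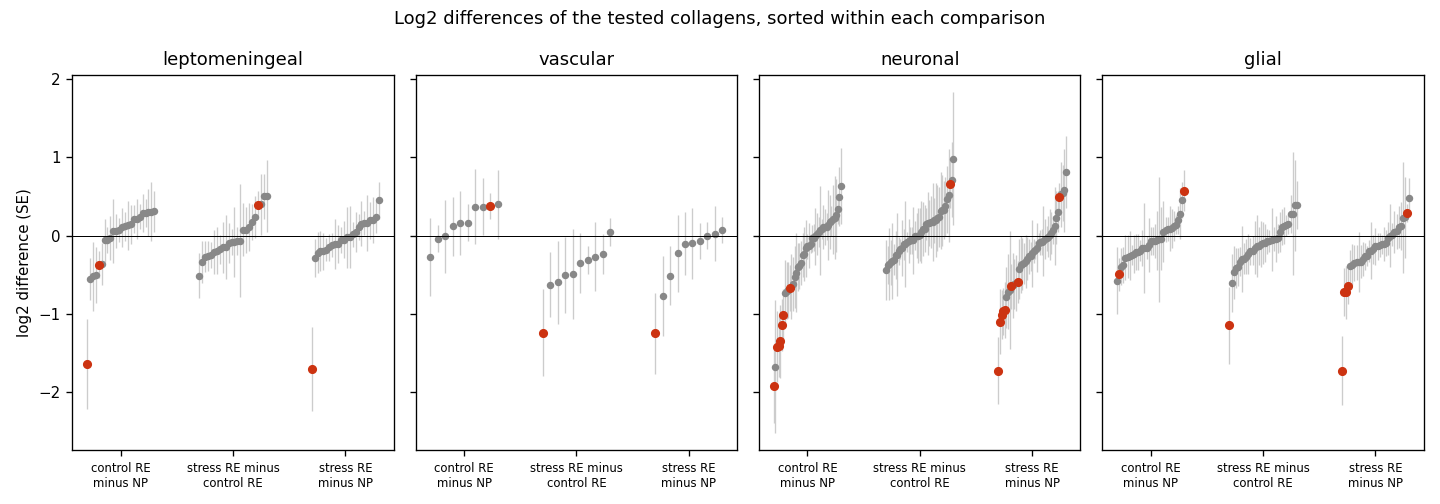
Log2 difference of every tested collagen in each class for the 3 contrasts, sorted within a contrast, with bars for the SE of the edgeR fit and a line at 0. Red points had an unadjusted p under 0.05, and none passed an adjusted p of 0.05.

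Genes that make, cross-link, break down or bind collagen were read beside the collagens, from 5 lists of 77 genes. Of the 20 genes of collagen modification and folding 10 were highest in the leptomeningeal class, as were 13 of 19 of processing and cross-linking, 6 of 12 of breakdown, 3 of 11 receptors and 9 of 15 laminins and other basement membrane genes. Among the 13, Dcn, Lum and Ogn are markers used to name the class, so the naming favoured their place there. The share of all genes highest in this class was not counted, so these counts do not set the lists apart from other genes. Serpinh1, the collagen chaperone, was at 30.7 ± 17.7 CPM in leptomeningeal, 18.5 ± 7.77 in vascular and 0.102 ± 0.0596 in neuronal nuclei. Other genes of the same list were not low in neuronal nuclei. By mean 2 of the 20 were highest there, Colgalt1 at 31.4 ± 6.25 and Tmem38b at 25.0 ± 2.82 CPM, and P4ha1 was at 74.9 ± 10.2 CPM. Loxl1, a cross-linking oxidase, was at 43.8 ± 9.68 CPM in leptomeningeal and 0.748 ± 0.168 in neuronal nuclei. Ddr2, a receptor of fibrillar collagen, was at 218 ± 36.6 CPM against 36.1 ± 14.5 in vessels, while Itga1, a collagen-binding integrin, was at 544 ± 88.9 in vascular and 102 ± 19.7 in leptomeningeal nuclei. Lama1, a laminin of the pial basement membrane, was at 887 ± 235 CPM in leptomeningeal and 34.2 ± 23.1 in vascular nuclei. Serpinh1, Loxl1, Ddr2, Itga1 and Lama1 were picked as examples after their values had been seen. Between the groups, 42 of the 77 genes were tested in leptomeningeal, 34 in vascular, 68 in neuronal and 65 in glial nuclei, and 0 passed an adjusted p of 0.05 by edgeR in any contrast. In neuronal nuclei an unadjusted p under 0.05 was reached by 0 higher and 7 lower (10.3% against 3.59% of all genes) for control RE against NP, 0 higher and 1 lower (1.47% against 0.813% of all genes) for stress RE against control RE, and 0 higher and 5 lower (7.35% against 2.97% of all genes) for stress RE against NP. In leptomeningeal nuclei an unadjusted p under 0.05 was reached by 3 higher and 2 lower (11.9% against 4.72% of all genes) for control RE against NP, 1 higher and 3 lower (9.52% against 4.2% of all genes) for stress RE against control RE, and 1 higher and 0 lower (2.38% against 3.72% of all genes) for stress RE against NP. In vascular nuclei an unadjusted p under 0.05 was reached by 0 higher and 0 lower (0% against 1.81% of all genes) for control RE against NP, 1 higher and 1 lower (5.88% against 4.19% of all genes) for stress RE against control RE, and 0 higher and 1 lower (2.94% against 3.76% of all genes) for stress RE against NP. In glial nuclei an unadjusted p under 0.05 was reached by 0 higher and 4 lower (6.15% against 1.62% of all genes) for control RE against NP, 3 higher and 2 lower (7.69% against 2.25% of all genes) for stress RE against control RE, and 0 higher and 3 lower (4.62% against 3.63% of all genes) for stress RE against NP.

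How many collagen-rich nuclei each library held was compared last. Leptomeningeal nuclei made up 1.25 to 2.14% of the nuclei of the NP mice, with a median of 1.64%. They made up 0.514, 0.934, 1.24 and 1.43% in control RE and 0.741, 0.762, 0.822, 1.27 and 1.83% in stress RE. The NP mice were mostly higher, and the groups overlapped. The means were 1.65 ± 0.301% among NP mice, 1.03 ± 0.398% among control RE mice and 1.09 ± 0.470% among stress RE mice. An exact two-sided permutation test gave a difference of -0.620 percentage points for control RE against NP, p = 0.0143, and 0.0857 after Benjamini-Hochberg adjustment over 6 comparisons. For stress RE against NP the exact test gave -0.562 points, p = 0.0498 and adjusted p = 0.149, and for stress RE against control RE 0.0579 points with adjusted p = 0.849. Vascular shares were 1.65 ± 0.710%, 1.40 ± 0.658% and 1.21 ± 0.274%, with exact adjusted p-values of 0.446 to 0.714. None of the 6 differences passed the adjusted threshold. A share of nuclei depends on how much of the brain surface a punch took, which was not measured.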

How the data were processed

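Count matrices of filtered barcodes, 1 per mouse, were deposited by the authors as whole UMI counts per gene. The labels name Cell Ranger 7.1.0, the file headers 7.0.0, and the labels name both mm10 and GRCm39 as builds. That collagens were taken up, and which gene lists were read beside them, was decided with earlier results of these data known, although the rule for the 44 members uses names only. Here barcodes with at least 200 genes and at most 5% mitochondrial counts were kept, and doublets were marked with Scrublet as run in scanpy 1.11.5, at 0.8% per 1000 barcodes of a library. Free RNA was not subtracted. Counts were normalised, and 2000 variable genes without collagens, 30 principal components and 15 neighbours gave Leiden clusters at resolution 1, without batch integration. A cluster took a first name where at least 3 markers reached 5 CPM and a fold of 2, with a mean log2 fold of 2. The name was dropped where the level of neuronal genes went against it, or where UMIs were low and no marker was among the leading genes. It was also dropped where more markers of another list stood among the leading genes. These thresholds were chosen with the clusters already in view. 3 clusters stayed unnamed although they met the marker rule, cluster 2 by low UMIs and clusters 13 and 19 by neuronal genes. Through the check of other lists, clusters 4, 5 and 33 became neuronal nuclei of no closer name.

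UMIs were summed per mouse and class, with at least 10 nuclei. edgeR 4.0.16 (filterByExpr, TMM, quasi-likelihood) was fitted to all 3 groups, without batch, and tested on simulated data. p-values measure the spread between mice. DESeq2 1.42.0, other scalings and filters, batch as a term, doublets kept and each mouse left out were alternatives. Text names every collagen at 10 CPM or more, the collagen of smallest p in each class and contrast, and the 4 with the most UMIs in each class for values by mouse. Intervals for pooled counts are exact Poisson at 95%, and a count of 0 allows 3 counts. All cover counting error only. Gene positions are those of GENCODE M21, promoter windows those of RefSeq.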

Additional observations from a re-analysis of the deposited data

Results flagged for a closer look

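3 values stood apart from the rest of their group by Dixon's test, out of 72 groups of mice tested over 22 combinations of a gene and a class and the shares of 2 classes of nuclei, where chance flags about 1 in 20 groups. In leptomeningeal nuclei Col4a6 was at 417.8 CPM in control RE replicate 1 and between 654.8 and 690.4 CPM in the other control RE mice. The same mouse had Col25a1 at 195.3 CPM in vascular nuclei, against 56.3 to 74.0 CPM in the others of its group. In neuronal nuclei Col5a3 was at 8.63 CPM in NP replicate 2 and between 1.08 and 3.69 CPM in the other NP mice.

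Clusters that could not be named, and so entered no comparison, held collagen UMIs as well. Col25a1 gave 5409 UMIs in cluster 19, 1998 in cluster 2 and 170 in cluster 13, which is 1188, 153 and 119 CPM pooled over mice, against a mean of 1310.4 CPM in GABAergic nuclei. Cluster 19 held 329 nuclei, 47.4% of them from 1 mouse, and Col6a3 and Col23a1 were among its leading genes. Pooled over mice, Col6a3 gave 739 UMIs (162 CPM) in this cluster and Col23a1 1151 UMIs (253 CPM). These are above the mean levels of Col6a3 in leptomeningeal nuclei (46.98 CPM) and of Col23a1 in Cajal-Retzius nuclei (80.7 CPM).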

How the results depend on the processing

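The number of collagens called remained 0 in all but 2 of the alternatives run for the classes, including every fit with a mouse left out. Without a filter on low counts 1 collagen was called in leptomeningeal nuclei for stress RE against NP, Col14a1 at -1.73 with an edgeR adjusted p of 0.0366, and genes called in all were 21, 17 and 37 in the 3 leptomeningeal contrasts and 3, 22 and 25 in the vascular ones, against 0. With DESeq2 1 collagen was called in neuronal nuclei for control RE against NP, Col5a3 at -1.91 with adjusted p = 0.0104, among 48 genes against 0 by edgeR, and with batch as a term Col5a3 was at -1.55. With a mouse left out, the log2 difference ran from -1.90 to -1.46 and from -1.97 to -1.51 for Col14a1 in leptomeningeal nuclei, and from -2.12 to -1.58 and -2.01 to -1.37 for neuronal Col5a3, in control RE and stress RE against NP. With doublets kept, vascular Col4a2 for control RE against NP went from 0.38 to 0.16. Within batches 2 and 3, as mean differences of log2(CPM + 1), which are smaller than fitted ones for low genes, Col6a6 in stress RE against NP was at -0.12 (all mice -0.45, fitted -1.25), neuronal Col28a1 in stress RE against control RE at 0.14 (0.19, fitted 0.66), neuronal Col5a3 in control RE against NP at -0.97 (-1.19, fitted -1.93) and glial Col8a1 in stress RE against NP at -0.76 (-1.09, fitted -1.73). Shares of nuclei moved as well. Within batches 2 and 3 the leptomeningeal difference of stress RE from control RE was -0.128 points and thus reversed (exact adjusted p = 0.833), while control RE against NP was -0.542 and stress RE against NP -0.670. With 1 mouse left out, leptomeningeal differences ran from -0.753 to -0.449 for control RE against NP, -0.748 to -0.464 for stress RE against NP and -0.128 to 0.191 for stress RE against control RE, and vascular ones from -0.518 to 0.0179, -0.595 to -0.234 and -0.454 to 0.0820. The leptomeningeal difference passed the threshold without NP replicate 3 for control RE against NP (-0.700 points, exact adjusted p = 0.0476) and without stress RE replicate 2 for stress RE against NP (-0.748, 0.0429). Stress RE against control RE reversed in leptomeningeal nuclei without control RE replicate 1 (-0.114) or stress RE replicate 2 (-0.128) and in vascular nuclei without control RE replicate 3 (0.0820), and control RE against NP in vascular nuclei without control RE replicate 4 (0.0179). The causes were not tested. No paired analysis was possible because replicate numbers follow accession order and tie no mice together. Leptomeningeal and vascular sums of 141211 to 770893 UMIs per mouse limit the precision for collagens below about 10 CPM.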
